A study of Mus musculus with 14 samples.

Results

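The liver 72 h after partial hepatectomy (PHx, surgical removal of part of the organ) was compared with normal mouse liver. Members were taken by title: the 2 arrays titled as 72 h after the operation and the 2 titled as normal liver, 4 of the 14 arrays in the series. This comparison and the gene lists below were chosen with earlier results of these data known. The other arrays cover 4, 8, 12, 36 and 48 h after the operation, again 2 per time. All RNA was total RNA from mouse liver, and the series pooled the livers of 4 to 6 mice for each extraction. The labels give no strain, genotype, sex, age, share of liver removed or hour of collection. The reference group is normal liver, and no sham-operated group was analysed here. It is not stated whether replicate arrays represent different pools, so p-values measure the spread between these arrays, which may be technical.

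Adult hepatocytes rarely divide. When liver mass is lost, the remaining cells first pass through a priming phase marked by immediate-early genes and cytokine-driven acute-phase genes. They then enter the cell cycle, replicate their DNA and divide, while still supplying plasma proteins, glucose and bile acids. The mass recovers over days, and a late time point such as 72 h mixes features that are already back at the resting level with others that are not.

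Each array gives 1 intensity per probe set, and the trimmed mean of the deposited values is about 500.2 on every array. Values for 13576 probe sets, the brighter 60% of 22626 after control probe sets were left out, were tested with limma on log2(intensity + 57), in 1 model over all 14 arrays. Adding 57 to each value makes the fold change of dim genes look smaller than it was. A probe set was called higher or lower where the Benjamini-Hochberg adjusted p was under 0.05. It was described as within 2-fold of normal where it was not called and the 95% confidence interval of the difference lay wholly between -1 and 1 on the log2 scale. All remaining probe sets are undetermined: they are shown neither to differ nor to have returned. Differences below are log2 differences (72 h minus normal) with their standard error (SE), and n is 2 arrays per group throughout. Where values are set "against" others with no group named, 72 h comes first and normal liver second.

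Marker transcripts fitted the labelled tissue. Albumin (Alb) read 46243 and 64350 in normal liver and 44733 and 41974 at 72 h, and apolipoprotein A1 (Apoa1) read 57614 and 63318 in normal liver and 50480 and 42122 at 72 h. Over all tested probe sets the replicate arrays correlated at r = 0.952 in normal liver and 0.957 at 72 h. The 5′/3′ signal ratio of pyruvate carboxylase, a control probe set read along the transcript, was 0.377 and 0.318 on the normal arrays and 0.507 on 72 h replicate 1. It was 0.137 on 72 h replicate 2, which in this respect resembled 3 other arrays of the series (0.0909 to 0.105), while the other 10 arrays lay at 0.305 or above. Some of the counts below, but not all, are therefore also given without those 4 arrays, which leaves 1 array at 72 h. The median difference over all probe sets was 0.112. It was 0 without normal replicate 2, 0.202 without normal replicate 1 and 0.016 after quantile normalization. Normal replicate 2 had the lowest median intensity of the series, 127.8. That of normal replicate 1 was 186, and the 72 h arrays had 199.4 and 176.

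At 72 h, 338 probe sets differed from normal liver, which is 2.49% of those tested. Of these, 220 (1.62%, for 163 genes) were higher and 118 (0.869%, for 93 genes) were lower. The change was at least 2-fold for 215 of the higher and 110 of the lower ones. A further 7089 probe sets (52.2%) lay within 2-fold of normal, and 6149 were undetermined. Counted with 1 probe set per gene, as in the lists below, 143 of 8453 genes were higher, 73 lower and 4580 (54.2%) within 2-fold. Among these genes, 382 were higher and 231 lower than at 12 h, and 30 higher and 28 lower than at 36 h. List counts below are to be read beside these. Of all probe sets, 2061 differed from normal liver at an unadjusted limma p under 0.05. Without the 4 arrays of low 5′/3′ ratio the calls fell to 51 higher and 12 lower, and leaving out single arrays of the compared groups gave 514 calls without normal replicate 1, 123 without normal replicate 2, 156 without 72 h replicate 1 and 108 without 72 h replicate 2.

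Of 90 named probe sets called at 72 h, 36 were also called when each of the 4 compared arrays was left out in turn. Among the rises these include the mitotic genes Ube2c, Cdca3, Mki67, Birc5, Ccnb2, Cdc20, Cdk1 and Ccna2, the replication genes Rrm2, Mcm5, Mcm6 and Dbf4, the acute-phase genes Saa1, Saa2, Lcn2 and Orm2, and also Prtn3, Mt1, Tubb6, Tubb4b, Gstm3, Gstm2, Apoa4, Timp1, Wee1 and D17H6S56E-5. Among the falls they are Hsd3b5, Gadd45g, Neat1, Slc25a25, Slc25a30, Hamp2, Cyp8b1, Slco1a1, Cxcl9 and the carbonic anhydrase Car3. The other named calls were lost without at least 1 of these arrays, and 16 of them, including Ccnd1, Cdkn1a, Tnfrsf12a, Smpd2, Slc10a1, Krt18 and Mlxipl, were lost whichever of the 4 was left out. With the low 5′/3′ arrays as a block, 74 of the 90 stayed called; the 16 lost were Aldoc, Apoa5, Cd74, Cdkn1a, Cyp51, Gckr, Got1, Krt18, Mogat1, Pon1, Retn, Slc10a1, Smpd2, Ugdh, Ugt2b1 and Usp2. Of the 90, 8 were above background on 1 normal array only (Ccnb2, Mcm6, Mogat1, Timp1, Tnfrsf12a, Tubb6, Usp2 and Wee1) and 3 on 1 array at 72 h only (Cxcl9, Gadd45g and Hsd3b5), so the sizes of these differences are uncertain. Background was taken on each array as the 95th percentile of its 27 probe sets for bacterial spike-in genes.

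**Figure D1:**
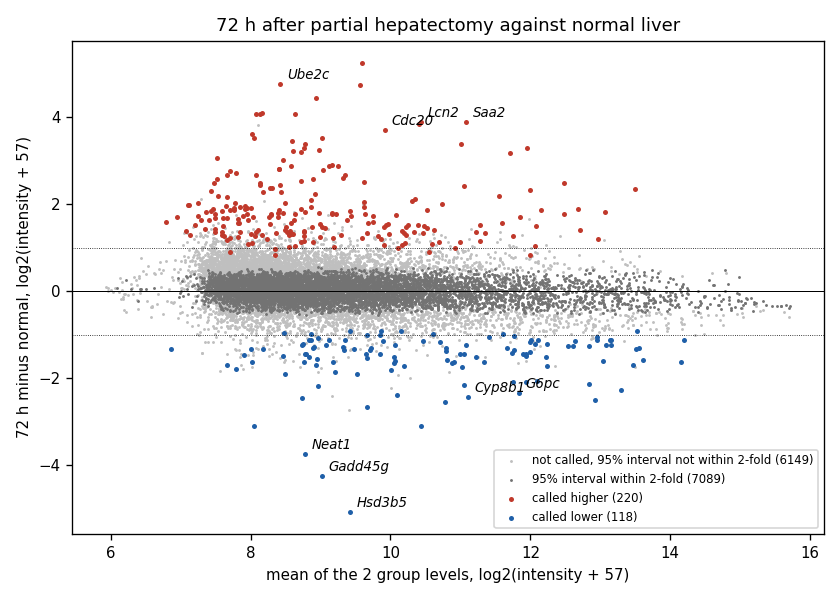
Each point is 1 of the 13576 probe sets tested: the mean of both group levels (horizontal) against the difference between 72 h and normal liver (vertical), both on the log2(intensity + 57) scale, with dotted lines at a 2-fold difference. The 220 probe sets called higher reach further from 0 among dim probe sets, and the 118 called lower include bright ones such as G6pc and Cyp8b1.

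Mitotic transcripts made up most of the largest rises at 72 h. Of the 10 genes with the largest rises (D17H6S56E-5, at 4882 and 5281 against 374.7 and 236.3, is one), 6 encode parts of the mitotic machinery: the ubiquitin-conjugating enzyme of the anaphase-promoting complex Ube2c, its regulator Cdc20, the cyclin Ccnb2, the proliferation marker Mki67, survivin (Birc5) and Cdca3. The other Cdca3 probe set gave 0.781 and was not called, while the one named gave 4.45. Of 60 listed genes of mitosis, 46 were tested and 37 were higher than normal at 72 h, none was lower and none lay within 2-fold. Over all 8453 genes tested, 143 were higher. The median difference was 2.01 for the 46 genes, against 0.12 over all genes tested. A filter on mean intensity keeps dim genes that are bright at some time. These shares therefore describe the tested members and not the whole list. A fit with no filter called 35 of the same 46 genes. Listed genes that the filter removed were not counted there either. In pooled tissue RNA, more dividing cells and more RNA per cell cannot be told apart.

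Ube2c read 12.8 and 4.5 on the normal arrays and 1731 and 1759 at 72 h. No normal array was above background, so the rise is given as at least 31-fold (difference 4.78 ± 0.296, limma adjusted p = 4.591e-06). Mki67 went from 21.8 and 2.8 to 1066 and 1178, at least 19.9-fold. Birc5, an inhibitor of apoptosis that also guides chromosome segregation, went from 8.7 and 8.3 to 1129 and 987.6, at least 18.8-fold. The groups were far apart for all of these, with every 72 h array many times above both normal arrays.

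Cdc20 was measurable in normal liver, at 245.6 and 177.5, and reached 3822 and 3093 at 72 h (3.71 ± 0.285, limma adjusted p = 1.786e-05). Cdk1, the kinase that drives entry into mitosis, rose from 78.3 and 116.6 to 1756 and 1656 (3.52 ± 0.229). Ccna2, a cyclin of S and G2 phase, rose from 181.5 and 95.9 to 1230 and 967.9 (2.59 ± 0.301). Top2a, the topoisomerase that untangles sister chromatids, rose from 119.6 and 44.5 to 697.6 and 586.7 (2.38 ± 0.36). Stmn1, a microtubule destabiliser, rose from 679.9 and 484.7 to 6732 and 6345. Foxm1, a transcription factor of the G2 and M phase programme, read 289.9 and 91.9 in normal liver and 373.8 and 396.7 at 72 h (limma adjusted p = 0.347), and is undetermined.

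The mitotic genes were at or near their height of the series. Of the 46 tested, 33 were higher at 72 h than at 12 h, where 4.15% of all probe sets were higher and 2.64% lower. Against 36 h, 11 were higher, where 0.28% of all probe sets were higher and 0.28% lower. Ube2c was 1.70 above its level at 36 h, Cdc20 2.20 and Ccnb2 2.39, all with limma adjusted p under the threshold. Against 48 h no probe set of any kind was called (0% of 13576; smallest limma adjusted p = 0.1528, and 370 with an unadjusted p under 0.05), and the median difference of the mitotic genes from 48 h to 72 h was -0.35. The comparisons with earlier times share the 72 h arrays with the comparison with normal liver. Without the 4 arrays of low 5′/3′ ratio, 17 of the 46 genes were called higher against normal.

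**Figure D2:**
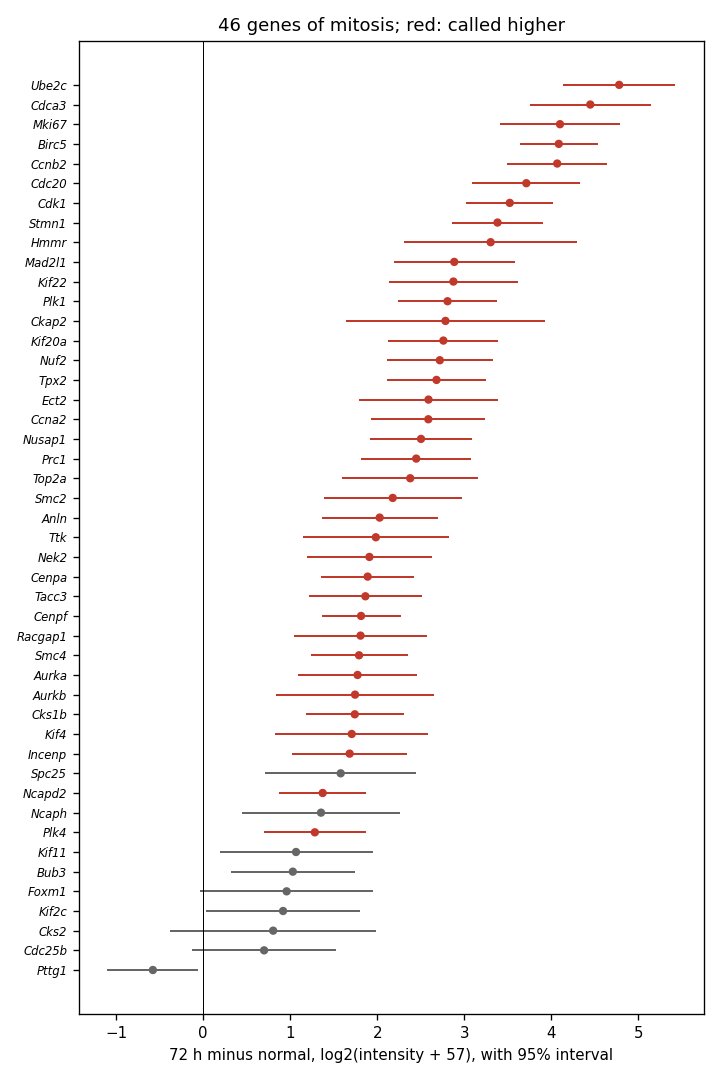
Difference between 72 h and normal liver on the log2(intensity + 57) scale for the 46 tested genes of the mitosis list, with 95% confidence intervals. Red marks the 37 called higher; Pttg1 is the gene whose estimate lies below 0.

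Promoters were taken for the whole mitosis list, whether or not a gene was tested or called at 72 h. Promoter windows from RefSeq (GRCm38.p6), running from 250 bases before the transcription start to 50 after it, were found for 49 of the 60 listed genes of mitosis (52 windows). They were searched on both strands for TTTGAA, the core of the cell cycle genes homology region (CHR), and for CCAAT, the core of the element bound by the factor NF-Y; the motifs share no letters at any one position in the sequences below. The stretch from 120 bases before to 30 after the start follows, 5′ to 3′ on the gene's strand, with matches to either motif, on either strand, in capitals. Ube2c lies at chr2:164769809-164769958 (plus strand), Cdc20 at chr4:118437314-118437463 (minus), Ccnb2 at chr9:70421525-70421674 (minus), Cdk1 at chr10:69352883-69353032 (minus), Mki67 at chr7:135716350-135716499 (minus) and Birc5 at chr11:117849117-117849266 (plus).
Ube2c: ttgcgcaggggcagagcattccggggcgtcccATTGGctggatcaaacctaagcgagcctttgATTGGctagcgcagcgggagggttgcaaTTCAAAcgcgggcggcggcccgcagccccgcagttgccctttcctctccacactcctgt
Cdc20: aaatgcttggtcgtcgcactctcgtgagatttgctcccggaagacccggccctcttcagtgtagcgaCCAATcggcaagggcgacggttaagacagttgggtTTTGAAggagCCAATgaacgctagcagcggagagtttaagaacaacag
Ccnb2: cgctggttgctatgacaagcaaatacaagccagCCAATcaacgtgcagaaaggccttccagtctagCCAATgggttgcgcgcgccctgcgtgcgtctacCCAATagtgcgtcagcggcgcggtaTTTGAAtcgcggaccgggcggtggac
Cdk1: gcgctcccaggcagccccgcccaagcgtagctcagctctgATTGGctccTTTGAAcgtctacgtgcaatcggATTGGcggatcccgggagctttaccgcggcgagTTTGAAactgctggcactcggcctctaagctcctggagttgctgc
Mki67: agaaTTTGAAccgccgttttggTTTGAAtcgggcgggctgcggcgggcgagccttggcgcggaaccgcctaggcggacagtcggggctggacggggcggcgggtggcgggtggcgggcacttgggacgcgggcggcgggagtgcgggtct
Birc5: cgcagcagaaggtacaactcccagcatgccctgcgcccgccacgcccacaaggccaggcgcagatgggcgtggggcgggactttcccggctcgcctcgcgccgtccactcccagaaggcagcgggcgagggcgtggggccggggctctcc

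In these stretches Ube2c and Cdc20 hold 1 CHR core and 2 CCAAT boxes each, Ccnb2 holds 1 and 3, and Cdk1 holds 2 and 2. Mki67 holds 2 CHR cores, and the Birc5 stretch holds neither set of letters. Over the whole 300-base windows, 36 of 52 (69.2%) contained the CHR core, against 17.9% of all 32851 windows, and 40 of 52 (76.9%) contained CCAAT, against 37.4%. Both occurred in 33 of 52 (63.5%), against 6.95%. Among 46 windows of the DNA replication genes described next, the CHR core occurred in 6 (13%), and GCGGGAA, a core of sites for E2F factors, in 16 (34.8%), against 3 of 52 (5.77%) for mitosis and 4.6% of all windows. A match of letters is a description of the sequence and was not tested for binding.

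DNA replication genes were higher too, by less. Of 50 listed, 33 were tested: 9 were higher than normal, 1 was lower, 3 lay within 2-fold and 20 were undetermined, with a median difference of 0.84. None of the 33 differed between 72 h and 36 h, while 17 were higher at 72 h than at 12 h. For all 8453 genes tested, that last count was 382. The count of 9 fell to 4 without 72 h replicate 2 and to 1 without the 4 arrays of low 5′/3′ ratio.

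Rrm2, the regulated subunit of ribonucleotide reductase, rose from 212.8 and 188.5 to 1760 and 1419 (2.67 ± 0.251, limma adjusted p = 9.766e-05). Mcm6, a subunit of the replicative helicase, read 12.2 and 145.5 in normal liver and 647.1 and 917 at 72 h (2.81 ± 0.405), so the groups were apart although the normal arrays disagreed. Its partner Mcm5 rose from 159.9 and 84.3 to 557 and 607.2 (1.87 ± 0.246). Pcna, the sliding clamp, rose from 1136 and 1497 to 3109 and 2806 (1.15 ± 0.211). The replication initiation factor Mcm10 went the other way, from 1407 and 1318 to 604.7 and 562.9 (-1.15 ± 0.206), a call lost without normal replicate 2, without either 72 h array and without the 4 arrays of low 5′/3′ ratio.

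Of 12 tested G1 cyclins, their kinases and inhibitors, 3 were higher, against 143 of all 8453 genes tested. Ccnd1, the cyclin that carries hepatocytes through G1, rose from 855.2 and 735.3 to 3220 and 3562 (2.02 ± 0.451, limma adjusted p = 0.03668). Cdkn1a, the inhibitor p21, was higher at the same time, from 222.5 and 274.4 to 1104 and 927 (1.81 ± 0.375), after 1859 and 5352 at 12 h. It had fallen by 1.59 on the log2 scale from 12 h, a call lost without 12 h replicate 2 (-0.84, limma adjusted p = 0.09889). Cdkn2c, the inhibitor p18, rose from 551.8 and 500.3 to 1326 and 1379. None of the 3 was called without 72 h replicate 1, without 72 h replicate 2 or without normal replicate 2, and 1 gene of the list was called without normal replicate 1. Cdk4, Cdk2 and Ccnd3 lay within 2-fold of normal.

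Of 7 tested histones and chromatin proteins, 3 were higher, against 143 of all 8453 genes tested. They were the variant histones H2ax (439.8 and 311.9 to 1291 and 1526) and H2az1 (1495 and 1990 to 4874 and 5696), and Hmgb2. Of 26 tubulin and cytoskeleton genes 5 were higher, among them Tubb6, from 39.3 and 78.7 to 959.4 and 1483 (3.45 ± 0.354), and Tubb4b, from 1906 and 2066 to 7045 and 6260. Of 4 Tubb4b probe sets tested, only this 1 was called, and the smallest difference was 0.238. Tubb6 was high at every time after the operation, with a mean of 1223 at 4 h. Without the 4 arrays of low 5′/3′ ratio none of these histone genes and 1 of the cytoskeleton genes was called. The histone count was 1 without normal replicate 2 and 1 without 72 h replicate 2, and the cytoskeleton count 3 and 2 in the same order.

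**Figure D3:**
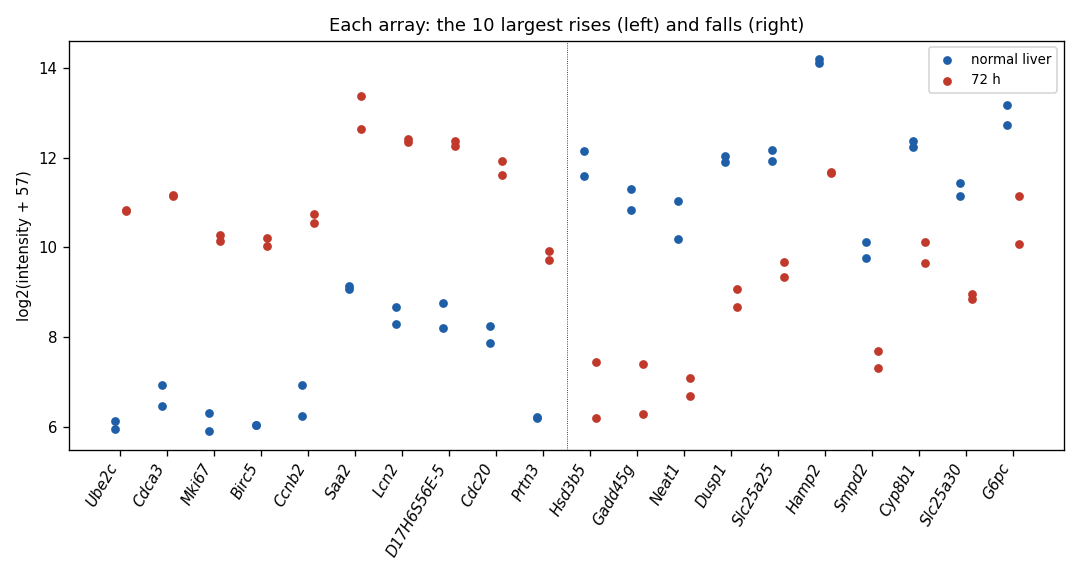
Level on each array, log2(intensity + 57), of the 10 largest rises (left of the dotted line) and the 10 largest falls (right), with 2 normal arrays in blue and 2 arrays at 72 h in red. Both red points lie on the same side of both blue points for each of the 20 genes; Hsd3b5 and Gadd45g show a wide gap between their 72 h arrays.

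The acute-phase response had subsided without ending. Its strongest members, the serum amyloid genes and lipocalin 2, were lower than at 12 h yet stayed far above normal. Of 26 acute-phase genes tested, 4 were higher at 72 h, none was lower and 13 lay within 2-fold. The median was 0.15, near the median of all genes. The share within 2-fold was 50%, against 54.2% of all 8453 genes tested, of which 143 were higher. Leaving out any 1 of the 4 compared arrays still gave at least 4 calls.

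Saa2, an acute-phase apolipoprotein, read 483.5 and 510.6 in normal liver and 10579 and 6340 at 72 h (3.90 ± 0.319, limma adjusted p = 2.943e-05). At 12 h its mean was 22797, and 72 h was lower than that by a called difference of -1.45, a call lost without 12 h replicate 1 (-1.19, limma adjusted p = 0.07999). Saa1 behaved alike, from 1041 and 1066 to 10037 and 10007, with a mean of 39196 at 12 h; Saa1 and Saa2 are near-identical copies, and their probe sets may share signal. Lcn2, an iron-scavenging protein, went from 352.4 and 257.2 to 5428 and 5142 (3.90 ± 0.494); its 12 h arrays disagreed, at 45690 and 9918, and 72 h was called lower than 12 h with either of them left out. Orm2, an acid glycoprotein, read 185.9 and 150.9 in normal liver, 1476 and 1715 at 72 h, and a mean of 1697 at 12 h. The fibrinogen gene Fgg lay within 2-fold, at 31217 and 43440 in normal liver and 31794 and 33818 at 72 h.

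Lcn2 is also a neutrophil product, so the neutrophil markers are given whole. Of 11 tested, 2 were higher: Lcn2 and Prtn3, a granule protease that went from 16.3 and 17 to 791.5 and 907.6, at least 15.1-fold. The other 9 were undetermined. Of all 8453 genes tested, 143 were higher. Of the 11 estimates, 10 lay above 0, with a median of 0.845, against 0.12 over all genes tested. The summed intensity of the 11 was 1205 to 1765 on the normal arrays and 7977 to 8146 at 72 h, at 72 h most of it Lcn2. The granule genes Elane (168.7 and 273.8 at 72 h against 110.3 and 81.4 in normal liver) and Mpo (205.5 and 258.8 against 267.1 and 73.9), and S100a8 and S100a9, were undetermined. Prtn3 was 2.71 above its level at 36 h and at least 7.1-fold above 12 h, when neither array was above background; both differences were called. The part of these cells in the Lcn2 result was not tested.

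The metallothioneins, zinc-binding stress proteins, were also above normal and below 12 h. Mt1 read 4261 and 4756 in normal liver and 17155 and 15191 at 72 h (1.83 ± 0.261), with a mean of 51037 at 12 h. A dimmer Mt1 probe set gave -0.10 and does not share the rise. Mt2 went from 2952 and 2086 to 6558 and 7778 (1.5 ± 0.293), with a mean of 42607 at 12 h. Neither was called without the 4 arrays of low 5′/3′ ratio, and 1 of the 2 remained called without normal replicate 2, without 72 h replicate 1 and without 72 h replicate 2.

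No gene of the priming phase was called above its resting level among the immediate-early genes. Of 25 immediate-early genes tested, 10 were lower at 72 h than at 12 h, against 231 of all 8453 genes tested. Set against normal liver, none was higher, 2 were lower, 6 lay within 2-fold and 17 were undetermined. Of all genes tested, 73 were lower than normal. Jun, a subunit of the factor AP-1, lay within 2-fold: 681.7 and 451.3 in normal liver, a mean of 1434 at 12 h, and 601.2 and 511.1 at 72 h (-0.00 ± 0.306). Dusp1, a phosphatase that switches off MAP kinases, was below normal, at 352.9 and 485.4 against 3784 and 4139 (-3.09 ± 0.51, limma adjusted p = 0.006609). Zfp36, which destabilises cytokine mRNAs, fell from 2773 and 3875 to 978.6 and 1079 (-1.62 ± 0.278). Myc read 555.9 and 574.4 in normal liver and 125.3 and 170.8 at 72 h (-1.61 ± 0.394, limma adjusted p = 0.05573); with the low 5′/3′ arrays as a block it was called lower (-1.98, limma adjusted p = 0.003332). The count of 2 lower became 0 without normal replicate 2, 0 without 72 h replicate 1 and 1 without 72 h replicate 2.

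Gadd45g, a stress-induced gene of growth arrest, dropped from 1757 and 2487 to 20.9 and 110.9 (-4.23 ± 0.411), the first of which was not above background, and had still read 3045 and 1251 at 12 h. The nuclear long noncoding RNA Neat1 went from 1106 and 2040 to 79.1 and 45.2; neither 72 h array was above background, so the fall was at least 20.2-fold. The mitochondrial ATP-Mg/phosphate carrier Slc25a25 fell from 3858 and 4545 to 590.2 and 759.1 (-2.55 ± 0.268) and was also lower than at 12 h and 36 h. The related carrier Slc25a30 fell from 2197 and 2716 to 404.8 and 438.2. The carbonic anhydrase Car3 fell from 30581 and 32905 to 10116 and 10547 (-1.61 ± 0.217). The sphingomyelinase Smpd2 fell from 1051 and 818 to 101.8 and 149.7.

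Of 21 tested genes of cytokine signalling and feedback, 2 were higher, 2 lower, 7 within 2-fold and 10 undetermined, with a median of 0.06. For all 8453 genes tested, the counts were 143 higher, 73 lower and 4580 within 2-fold. Socs3, the feedback inhibitor of IL-6 signalling, differed from its 12 h level by -2.81 (called) and read 308 and 390.5 against 247.6 and 205.5 in normal liver (0.52 ± 0.329, limma adjusted p = 0.4889). The interleukin 1 receptor Il1r1 differed from 12 h by -3.13 (called) and was undetermined against normal. Tnfrsf12a, the receptor for the cytokine TWEAK, was higher at 72 h, at 1764 and 1002 against 47.4 and 108.3 (3.40 ± 0.722), although it read 114.5 and 284.4 at 48 h. The chemokine Ccl9 rose from 5104 and 5365 to 12004 and 12158. The chemokine Cxcl9 and Socs2, the feedback inhibitor of growth hormone signalling, were lower: Socs2 went from 941 and 1071 to 194.5 and 162.6 (-2.17 ± 0.373). Without normal replicate 2, and without either 72 h array, neither of the 2 rises in this list was called; without normal replicate 1, 1 gene of the list was.

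**Figure D4:**
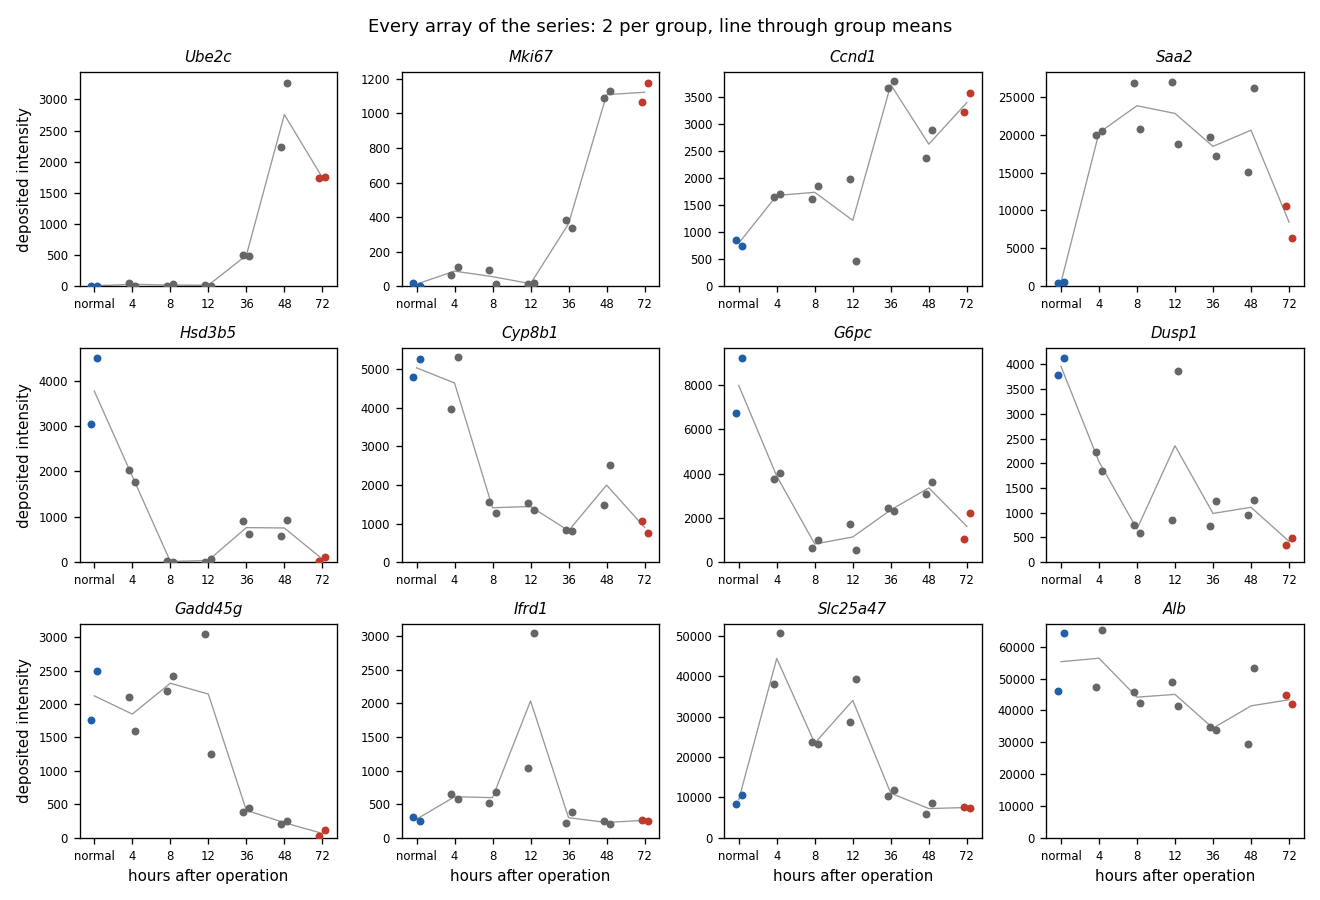
Deposited intensity of 12 genes on all 14 arrays, 2 per group, from normal liver (blue) through 4 to 48 h (grey) to 72 h (red), with a line through the group means. Ube2c and Mki67 are high at 48 and 72 h, Saa2 has come down but not to normal, Hsd3b5 and Cyp8b1 remain low, and Ifrd1, Slc25a47 and Alb lie near their normal level.

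The largest fall belonged to a male-biased steroid enzyme of the hepatocyte, and several other genes of that kind were lower. Hsd3b5 read 3053 and 4494 in normal liver and 16 and 115.8 at 72 h (-5.07 ± 0.423, limma adjusted p = 3.268e-05), with 1 of the 2 arrays at 72 h above background. It was not above background on any array at 8 h or 12 h, averaged 761 at 36 h and 752 at 48 h, and had a difference of -2.84 from 36 h to 72 h that was called. Against 48 h the difference was -2.81, which was not called. Of 21 tested male-biased liver genes, 8 were lower and 1 was higher, with a median of -1.12 and 16 of 21 estimates below 0. For all 8453 genes tested, the counts were 73 lower and 143 higher. The count of 8 was 3 without normal replicate 2, 4 without 72 h replicate 1, 3 without 72 h replicate 2, and 1 without the 4 arrays of low 5′/3′ ratio.

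Many of these genes depend on growth hormone. The organic anion transporter Slco1a1 fell from 3778 and 4963 to 1204 and 712.4 (-2.16 ± 0.309). The fatty acid hydroxylase Cyp4a12a fell from 4124 and 3727 to 1624 and 1103 (-1.51 ± 0.274), with a called difference of -1.49 from 12 h. Keg1 fell from 6975 and 6039 to 2032 and 2943, yet was 2.85 above its 12 h level. Igfals, which holds IGF-1 in the circulation, fell from 1381 and 2341 to 511.9 and 555.2. Growth hormone receptor (Ghr) itself was lower, at 3531 and 4065 against 8665 and 9718 (-1.26 ± 0.241), as was the receptor Lifr. Igf1 lay within 2-fold, at 7863 and 10712 against 9740 and 10985 (-0.17 ± 0.26), and so did the hepatocyte growth factor gene Hgf. Of 14 tested female-biased genes, 3 were lower, Hamp2, Lifr and Cyp2b9, and none was higher. For all 8453 genes tested, the counts were 73 lower and 143 higher. That count of 3 was 1 without normal replicate 2, without either 72 h array or without the 4 arrays of low 5′/3′ ratio. TTCNNNGAA, the spacing bound by STAT factors, occurred in 7 of 30 promoter windows of the male-biased genes (23.3%), against 8.3% of all windows. The 7 windows belong to 5 of 25 listed genes, called or not, against 2582 of 27025 genes with any window. Neither binding nor a part in the falls was tested.

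Bile acid and drug-metabolising enzymes were lower in part. Of 36 tested cytochrome P450 genes, 6 were lower, none was higher and 8 lay within 2-fold. Of 26 bile acid genes, 4 were lower and 10 within 2-fold. Of 40 tested genes of drug conjugation (phase II), 2 were lower, none was higher and 20 lay within 2-fold. Their estimates lay above 0 for 18 and below 0 for 22, with a median of -0.155. For all 8453 genes tested, the counts were 73 lower, 143 higher and 4580 within 2-fold. Cyp8b1, the 12-hydroxylase that sets the cholic acid share of bile, fell from 4810 and 5272 to 1054 and 746 (-2.43 ± 0.28, limma adjusted p = 0.0004793). Cyp27a1, of the alternative synthesis pathway, fell from 10228 and 12457 to 5744 and 5074, and Slc10a1, the bile salt uptake transporter, from 11831 and 14506 to 6538 and 5618. Cyp7a1, whose step limits the rate of bile acid production, stood at 3104 and 2148 against 1104 and 1348 (1.05 ± 0.299, limma adjusted p = 0.1041), undetermined against normal but 3.13 above its 12 h level. The pericentral enzyme Cyp2e1 read 22441 and 23215 against 30787 and 35937 (-0.54 ± 0.251, limma adjusted p = 0.3324). The P450 count was 0 without normal replicate 2, 2 without 72 h replicate 1, and 0 without 72 h replicate 2 or without the 4 low-ratio arrays. The bile acid count was 2 without any one of normal replicate 2, 72 h replicate 1 or 72 h replicate 2, and 0 without the 4 low-ratio arrays.

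Of 19 cholesterol synthesis genes tested, 5 were lower than normal, 4 lay within 2-fold and 10 were undetermined. All 19 estimates lay below 0, with a median of -0.78, and 8 genes were lower than at 36 h. For all 8453 genes tested, 73 were lower than normal and 28 lower than at 36 h. Msmo1, the sterol methyl oxidase, read 4629 and 2936 in normal liver, a mean of 7415 at 36 h, and 1155 and 979.7 at 72 h (-1.74 ± 0.325, limma adjusted p = 0.01308). Mevalonate kinase (Mvk) went from 484.6 and 882.4 to 194.5 and 215. Lanosterol demethylase (Cyp51) went from 958.3 and 1240 to 530.2 and 501.5 with a difference of -1.97 from 36 h. The other Cyp51 probe set gave -0.392 against normal liver and was not called. The count of 5 was 1 without normal replicate 2, 1 without 72 h replicate 1, 0 without 72 h replicate 2, 3 without normal replicate 1 and 0 without the 4 low-ratio arrays.

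Some fatty acid synthesis genes had risen since 12 h. Of 30 tested, 9 were higher than at 12 h, 15 lay within 2-fold of normal and 1 was lower than normal. For all 8453 genes tested, 382 were higher than at 12 h and 4580 within 2-fold of normal. Srebf1, the transcription factor that drives lipogenesis, read 4117 and 4429 in normal liver, a mean of 1217 at 12 h, and 4578 and 4378 at 72 h (0.07 ± 0.306). The carbohydrate-responsive factor Mlxipl was the 1 lower, at 1893 and 2162 against 4837 and 6195. Cidec, a lipid droplet protein, read 3163 and 1152 at 12 h and differed from that by -3.94 at 72 h; its normal arrays were not above background. Apoa4, an apolipoprotein made in the fat-laden liver, was still raised, at 6043 and 6683 against 1362 and 1319 (2.20 ± 0.321), down from a mean of 23008 at 36 h.

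Glucose output genes were partly low. The glucose-6-phosphatase gene G6pc, needed for glucose release, went from 6735 and 9229 to 1022 and 2208 (-2.35 ± 0.455, limma adjusted p = 0.01623). Of 19 gluconeogenesis and glycogen genes tested, 3 were lower, against 73 of all 8453 genes tested. They were G6pc, the glucokinase regulator Gckr and the aminotransferase Got1. None of the 3 was called without normal replicate 2 or without 72 h replicate 1; 1 gene of the list was called without normal replicate 1, without 72 h replicate 2, and with the replicate numbers as a block. Igfbp1, a fasting-responsive binding protein, read 8926 and 8583 in normal liver and 1487 and 4574 at 72 h (-1.72 ± 0.478, limma adjusted p = 0.09449; -2.15 and 0.008622 with the low 5′/3′ arrays as a block), and its difference of -2.87 from 12 h was called.

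Some detoxifying enzymes of the oxidative stress response were higher. Of 21 targets of the factor NRF2 tested, 4 were higher and 8 within 2-fold, against 143 and 4580 of all 8453 genes tested. The glutathione transferase Gstm3 read 4782 and 5326 in normal liver and 26504 and 25556 at 72 h (2.35 ± 0.229, limma adjusted p = 0.0001174), above its level at 12 h. Gstm2 rose from 1556 and 1265 to 3886 and 4500, and the quinone reductase Nqo1 from 327.8 and 164.8 to 827.7 and 763.9. The count of 4 was 2 without normal replicate 2, 2 without either 72 h array and 1 without the 4 low-ratio arrays.

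Hepcidin 2 (Hamp2), of the hormone family that limits iron export, fell from 17810 and 18765 to 3238 and 3163 (-2.49 ± 0.275), and stood 1.41 above its 36 h level. Of 14 clock and clock-output genes, 3 were higher, against 143 of all 8453 genes tested. They were Wee1, from 58.9 and 64.9 to 733.3 and 475.1, Dbp, from 163.1 and 89.1 to 428.5 and 512.2, and Usp2. The other Usp2 probe set gave 0.945 and was not called. The hour of the day at collection cannot be told apart from the operation here. With the low 5′/3′ arrays as a block, 2 of the 3 were called, and Usp2 was not. Without normal replicate 2 and without 72 h replicate 2, 1 of the 3 was called, and without 72 h replicate 1, 2 were.

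Ribosomal proteins, proteasome subunits and genes of mitochondrial respiration were mostly within 2-fold of normal: 25 of 26 (96.2%), 26 of 29 (89.7%) and 41 of 55 (74.5%), against 4580 of all 8453 genes tested (54.2%). The shares were nearer that background for ribosome biogenesis (15 of 25, 60%), coagulation (14 of 23, 60.9%) and fatty acid oxidation and ketogenesis (16 of 29, 55.2%). None of these lists had a call, and the remaining members were undetermined. Of the 25 ribosome biogenesis genes, 8 were lower than at 12 h, against 231 of all 8453 genes tested. The nucleolar protein Npm1 read 1387 and 1161 in normal liver and 1344 and 1577 at 72 h, after a mean of 2386 at 12 h. The hepatocyte factor Hnf4a was level, at 5098 and 6312 in normal liver and 5448 and 5446 at 72 h (-0.06 ± 0.23). Of 16 hepatocyte markers 8 lay within 2-fold and none was called, with 1 estimate above 0. Of 44 genes of the urea cycle and amino acid metabolism 20 lay within 2-fold, 1 was higher (the serine synthesis enzyme Psat1) and 1 lower (the cysteine dioxygenase Cdo1).

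**Figure D5:**
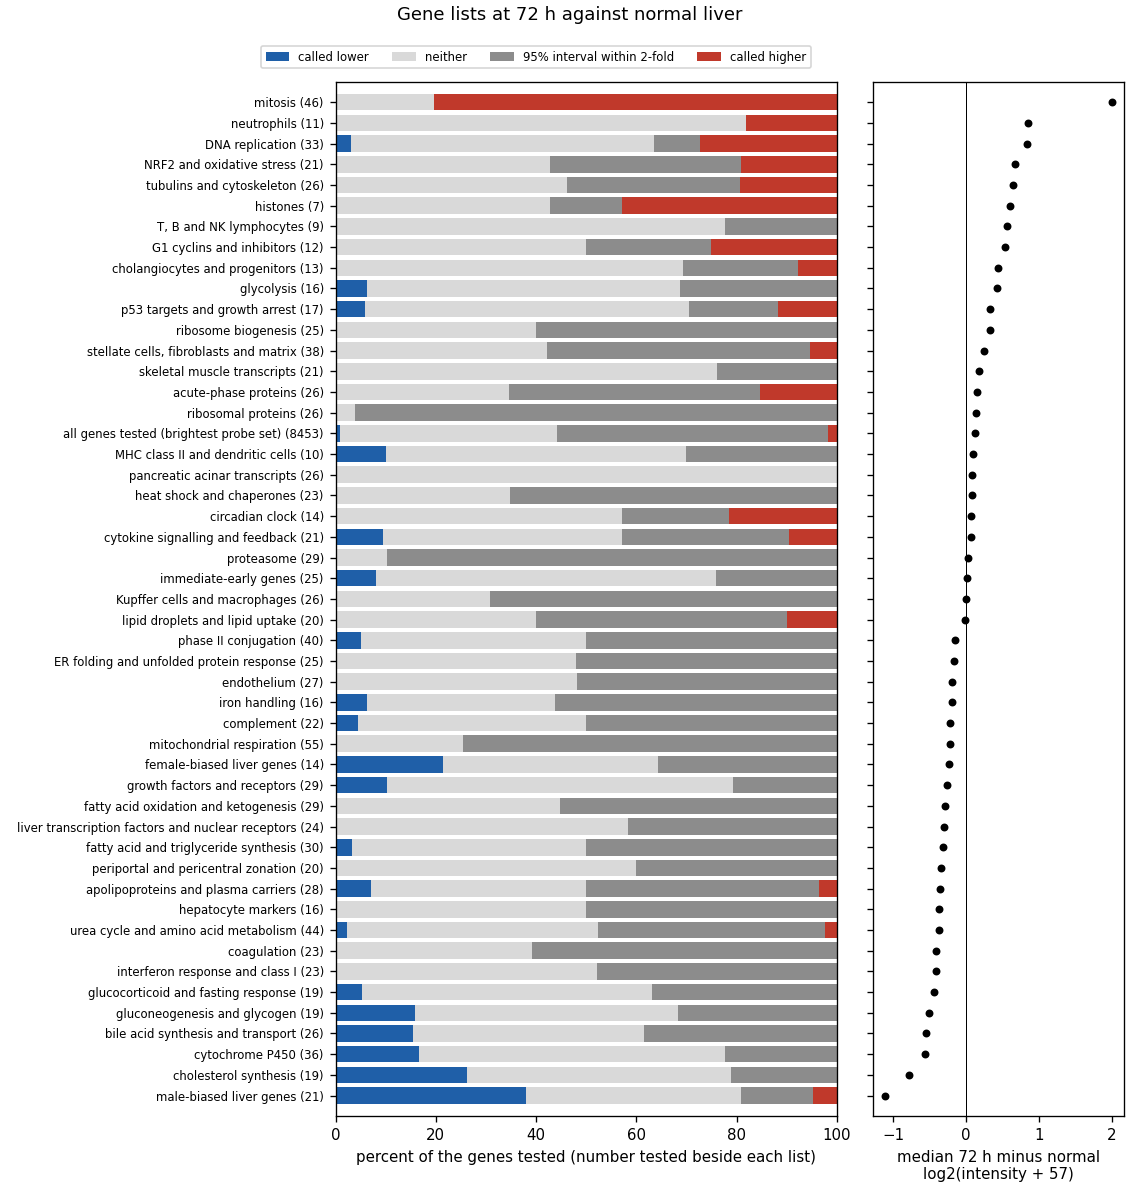
Left, share of tested genes in each list that were called lower (blue), called higher (red), within 2-fold (dark grey) or neither (light grey) at 72 h; right, the median difference from normal liver on the log2(intensity + 57) scale. Mitosis stands at the top with 37 of 46 genes higher and a median of 2.01, and male-biased liver genes at the bottom with 8 of 21 lower and a median of -1.12.

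Return was asked separately of what had moved before 72 h. A test across the 4, 8, 12, 36 and 48 h groups found 1275 probe sets that varied (9.39%). It compares only these groups, but its error term comes from all 14 arrays and is shared with the comparison of 72 h with normal liver, so the shares that follow are not independent of that comparison. At 72 h, 153 of them were higher than normal and 60 lower, or 16.7% in all, against 2.49% of all probe sets tested. A further 473 (37.1%) lay within 2-fold, against 52.2%, and 589 (46.2%) were undetermined. Chosen instead with an error term from the 10 arrays of 4 to 48 h alone, an alternative added after the data were seen, 953 varied, of which 190 (19.9%) were called and 312 (32.7%) lay within 2-fold. Without the 4 low-ratio arrays, 46 of the probe sets that varied were called and 81 lay within 2-fold. The number within 2-fold ranged from 219 to 897 when 1 array was left out, with the highest value without 12 h replicate 1.

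Among those that had varied most and were back within 2-fold, 5 were measurable in normal liver. Mrap, which helps traffic the corticotropin receptor, read 6695 and 14351 at 12 h and 1104 and 1841 at 72 h, against 1429 and 1159 in normal liver (0.14 ± 0.355). The mitochondrial carrier Slc25a47 averaged 44377 at 4 h and 33990 at 12 h, and read 7556 and 7446 against 8291 and 10517 (-0.31 ± 0.263). Ifrd1, an interferon-related regulator, read 1032 and 3037 at 12 h and 267.3 and 256.1 at 72 h, against 304.2 and 250 in normal liver. Ddc, which makes dopamine and serotonin from their precursors, had dipped to 150.9 and 462.1 at 12 h and read 2134 and 2083 at 72 h, against 2672 and 2453 in normal liver. The fifth, 1810055G02Rik, averaged 2812 at 12 h and read 479.5 and 355.6 against 249.2 and 390.8. The 12 h mean of each was separated from 72 h by a called difference of 2.15 or more in size. Each difference was also called with either 12 h array left out. These genes were picked for a wide range over 4 to 48 h and a 72 h level within 2-fold. A large difference from an earlier time therefore follows in part from the choice and is not separate support for a return. With the low 5′/3′ arrays as a block, Ifrd1 and Ddc were undetermined against normal liver. The other 5 named by the same rule, Nupr1, Myl1, Krt4, Ckmt2 and Cox8b, were not above background on any normal or 72 h array, so no level can be compared for them.

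Transcripts of other cells were read the same way. Of 26 Kupffer cell and macrophage markers, 18 lay within 2-fold (69.2%, against 54.2% of all 8453 genes tested) and none was called. Their summed intensity was 23473 and 23838 in normal liver and 22208 and 21636 at 72 h. Above their 12 h level were 6 of them, against 382 of all genes tested. Csf1r, the macrophage growth factor receptor, read 2691 and 2893 in normal liver and 2052 and 2194 at 72 h. Of 27 endothelial markers none was called and 14 lay within 2-fold (51.9%, against 54.2% of all genes tested). Of 9 lymphocyte markers tested, none was called and 2 lay within 2-fold. For the counts that follow, 143 of all 8453 genes tested were higher and 73 lower. Of 38 stellate cell, fibroblast and matrix genes, 2 were higher: the protease inhibitor Timp1, from 59.7 and 51.2 to 353.4 and 376.6 (1.91 ± 0.219, limma adjusted p = 0.0004758), and the matrix protease Mmp14. Of 10 genes of MHC class II and dendritic cells, 1 was lower, 3 lay within 2-fold and 6 were undetermined, with 7 estimates above 0 and a median of 0.09; the 1 lower was the antigen-presentation chaperone Cd74, from 1237 and 1206 to 660.3 and 593. Krt18, a keratin of hepatocytes and bile ducts, rose from 3748 and 4298 to 9402 and 12265. The calls of Mmp14, Cd74 and Krt18 were each lost when any 1 of the 4 compared arrays was left out, while that of Timp1 was not. The other Mmp14 probe set gave 0.615 and was not called.

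Pancreatic and muscle transcripts can mark tissue carried along at dissection, an origin that was not tested here. None was called at 72 h, but all 26 pancreatic genes and 16 of 21 muscle genes were undetermined. The summed intensity of 26 pancreatic acinar genes was 6680 and 5681 in normal liver and 5003 and 4881 at 72 h, with none called. That of 21 skeletal muscle genes was 2945 and 1787 in normal liver and 3133 and 2528 at 72 h. The pancreatic protease Ctrb1 averaged 35264 at 8 h and read 229.3 and 266.4 at 72 h against 127.9 and 146.1. Because such genes varied widely between arrays at other times, their intervals are broad and none of the 26 could be placed within 2-fold.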

How the data were processed

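The members and gene lists were chosen with earlier results of these data known. Biotin-labelled total RNA was measured on 1-colour arrays, and the authors deposited linear intensities, 1 per probe set. Their mean after trimming 2% off each end is nearly equal on every array, as the values show; the steps that made and scaled the signals are not given in the sources used here. Per the series' design text, the authors chose genes by a 2-fold change in GeneSpring 7.2. Here the intensities were used as deposited and tested on log2(intensity + 57), where 57 is the 25th percentile of all values, with limma 3.58.1 in R 4.3.3, a group-means model over 14 arrays with 7 residual degrees of freedom. Control probe sets (64) were left out, and 13576 probe sets with a mean at or above the 40th percentile (128.8) were kept. Symbols came from the platform annotation: 20380 probe sets have 1 symbol, 691 several and 1555 none; only those with 1 were named, and lists used the brightest probe set of a gene. Array number limits precision.

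The rule for naming genes took the 10 strongest rises and the 10 strongest falls among called probe sets whose arrays do not overlap and whose higher mean reached the median probe set mean (186.4); up to 4 called members of each list, or its 2 brightest tested; 36 landmark genes; and the 10 probe sets of widest range over 4 to 48 h that lay within 2-fold at 72 h. Others given with a list were chosen after their values were seen. Replicate numbers are shared across groups; the deviations of normal and 72 h replicates correlated at r = 0.11, and nothing says the numbers pair the samples. Alternatives are in the closing section.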

Additional observations from a re-analysis of the deposited data

Results flagged for a closer look

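The difference from normal liver changed with time by a direct test: it differed between 72 h and 12 h for 923 probe sets, and between 72 h and 36 h for 76 (limma adjusted p under 0.05).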

How the results depend on the processing

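With 2 arrays per group, single arrays carry much of the result. Leaving out 1 array at a time gave 108 to 514 calls against normal liver (82 to 386 higher, 26 to 177 lower) and 4005 to 7614 probe sets within 2-fold. Among those that varied, 85 to 314 were called and 219 to 897 lay within 2-fold; against 12 h there were 332 to 1249 calls, against 36 h 10 to 101, and against 48 h 0 in each case after adjustment. Without the 4 low 5′/3′ arrays the counts were 63 calls (51 higher, 12 lower), 4206 within 2-fold, 46 and 81 among those that varied, 129 against 12 h and 1 against 36 h. A fit on only the 4 compared arrays gave 180 calls (126 and 54). With 4 times the pseudocount, 201 were lower, 11402 within 2-fold, 984 of them among those that varied, and 1 was called against 48 h, as was 1 with an intensity trend. No filter gave 12116 within 2-fold and 1 probe set per gene 4681, since more or fewer were tested. With varying probe sets chosen on the 10 arrays of 4 to 48 h alone (added after seeing the data), 190 were called and 312 lay within 2-fold. Array weights gave 759 within 2-fold among those that varied, 602 calls against 12 h and 180 against 36 h. A 2-fold difference of means with no test held for 1134 (761 higher, 373 lower). With the replicate number as a block (replicate block), 336 were called (218 higher, 118 lower), with 310 of the calls shared with the unblocked fit. Quantile normalization gave 339 calls, and treating the low-ratio arrays as a block gave 286. No named probe set changed direction while called under the alternatives run. Direction was not checked for the other probe sets. The fit on 4 arrays and the 2-fold rule gave no value for the comparisons with other times. Except where stated, the cause of these changes was not tested.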
